A study of Homo sapiens with 4 samples.

Results

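Pol II occupancy was described over 10 heat shock and chaperone genes of the human genome: HSPA1A, HSPA1B, HSPA8, HSPH1, HSP90AA1, HSP90AB1, DNAJB1, BAG3, HSPD1 and HSPE1. They were taken by name out of 19974 protein-coding genes, and every peak that touched a gene or the 5000 bp on either side of it (its window) was counted. The windows held 29 of 26387 peaks in the NKAP siRNA list and 32 of 36345 peaks in the control siRNA list. Pol II was mapped by ChIP-seq, which sequences the DNA that an antibody pulls down with a protein, in U2OS, an established human osteosarcoma cell line. The cells were transfected for 48 h with an siRNA against NKAP (NKAP_KD), which encodes a nuclear RNA-binding protein, or with a control siRNA (NC), and were then fixed for 10 min in 1% formaldehyde. The labels name no heat treatment in either group. Each group had 1 Pol II ChIP library and 1 input library, and the input libraries were not analysed here, so every difference is between single libraries and has no test.

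Chaperones bind unfolded proteins and help them to fold, to assemble or to be destroyed. HSP70 proteins bind short exposed stretches and are driven by ATP, J proteins such as DNAJB1 bring them their clients, exchange factors such as BAG3 and HSP110 reset them, and HSP90 takes over late folding steps of kinases and receptors. Many of these genes are switched on by heat through the factor HSF1, which binds repeats of GAA in alternating orientation (heat shock elements). In Drosophila, hsp70 is the classic gene at which Pol II is held just past the start before heat releases it.

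At each summit (the highest point of a peak) the number of reads was recovered from the deposited values, which gave a whole number, to within 0.01, at 99.8% of the peaks of each list. By the same values the NKAP siRNA library had 0.842 times the mean coverage of the control library, so each ratio of summit reads given below is divided by that number. Its 95% interval is an exact conditional binomial interval that covers counting error only. Peaks covered 23.9 Mb in the NKAP siRNA list and 38.6 Mb in the control list, so a shorter covered length at a gene stands beside the same difference over the whole genome. The lists stopped at a −log10 q of 3.02 with NKAP siRNA and 3.01 with control siRNA, and a region without a peak can hold Pol II below that threshold. At NKAP itself 1 peak stood in each list, with 13 summit reads in the NKAP siRNA library and 12 in the control library, which does not check the knockdown because an siRNA acts on the transcript. Of 9 osteoblast lineage and mesenchymal markers 7 had a peak in each list, with COL1A2 and SPP1 at none. The labels also call the line epithelial, and of 4 epithelial markers EPCAM, KRT5 and KRT14 had none in either list, while CDH1 had none with NKAP siRNA and 4 peaks with control siRNA, with a fold enrichment of at most 6.88. Windows of 0 of 4 hepatocyte markers, 4 of 4 neuron markers and 2 of 4 lymphocyte markers held a peak in each list.

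All 10 genes carried Pol II in both libraries, and in every one of them peaks covered less of the window in the NKAP siRNA library. Scaled for depth, the ratio of summit reads was nearer to 1 than that of covered length at all of them but HSP90AB1. Covered length was not scaled for depth, so these ratios are not on the same scale. At the HSPA1B start itself the summit ratio was 0.607, farther from 1 than the 0.695 of covered length in its window. The lowest ratios of summit reads belonged to the stress-inducible pair HSPA1A and HSPA1B and to HSPD1 with HSPE1, while HSPH1, DNAJB1 and BAG3 were at about the control level. Over all protein-coding genes, 66.5% had a window peak in the NKAP siRNA list, 70.1% in the control list and 64.7% in both. The covered length was lower with NKAP siRNA in 10 of 10 of these genes, against 87.3% of the 12932 protein-coding genes with peaks in both lists. For summit reads, 7 of the 10 genes had a ratio below 1, against 64.4% of all such genes. The median ratio was 0.792 over the 10 genes and 0.918 over all such genes. HSPD1 and HSPE1 share their peak, and with it counted once 6 of 9 ratios were below 1 and the median was 0.797. Among the 7579 genes with at least 36 control reads, the lowest control value of the 10, the median was 0.872 and 76.5% were below 1. A summit lower by 1.5-fold or more was seen at 1 of the 10 genes, HSPA1A, against 8.41% of all genes and 10% of those 7579. That count was 0 when reads were scaled by the coverage at which peaks were called (HSPA1A 0.679) or by the median ratio over all genes (HSPA1A 0.685), and 2 with windows of 1000 bp, which add HSPA1B (0.607). A summit higher by 1.5-fold or more was seen at 0 of the 10, against 3.11% of all genes. The 95% counting interval of every one of the 10 ratios included 1.

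**Figure D1:**
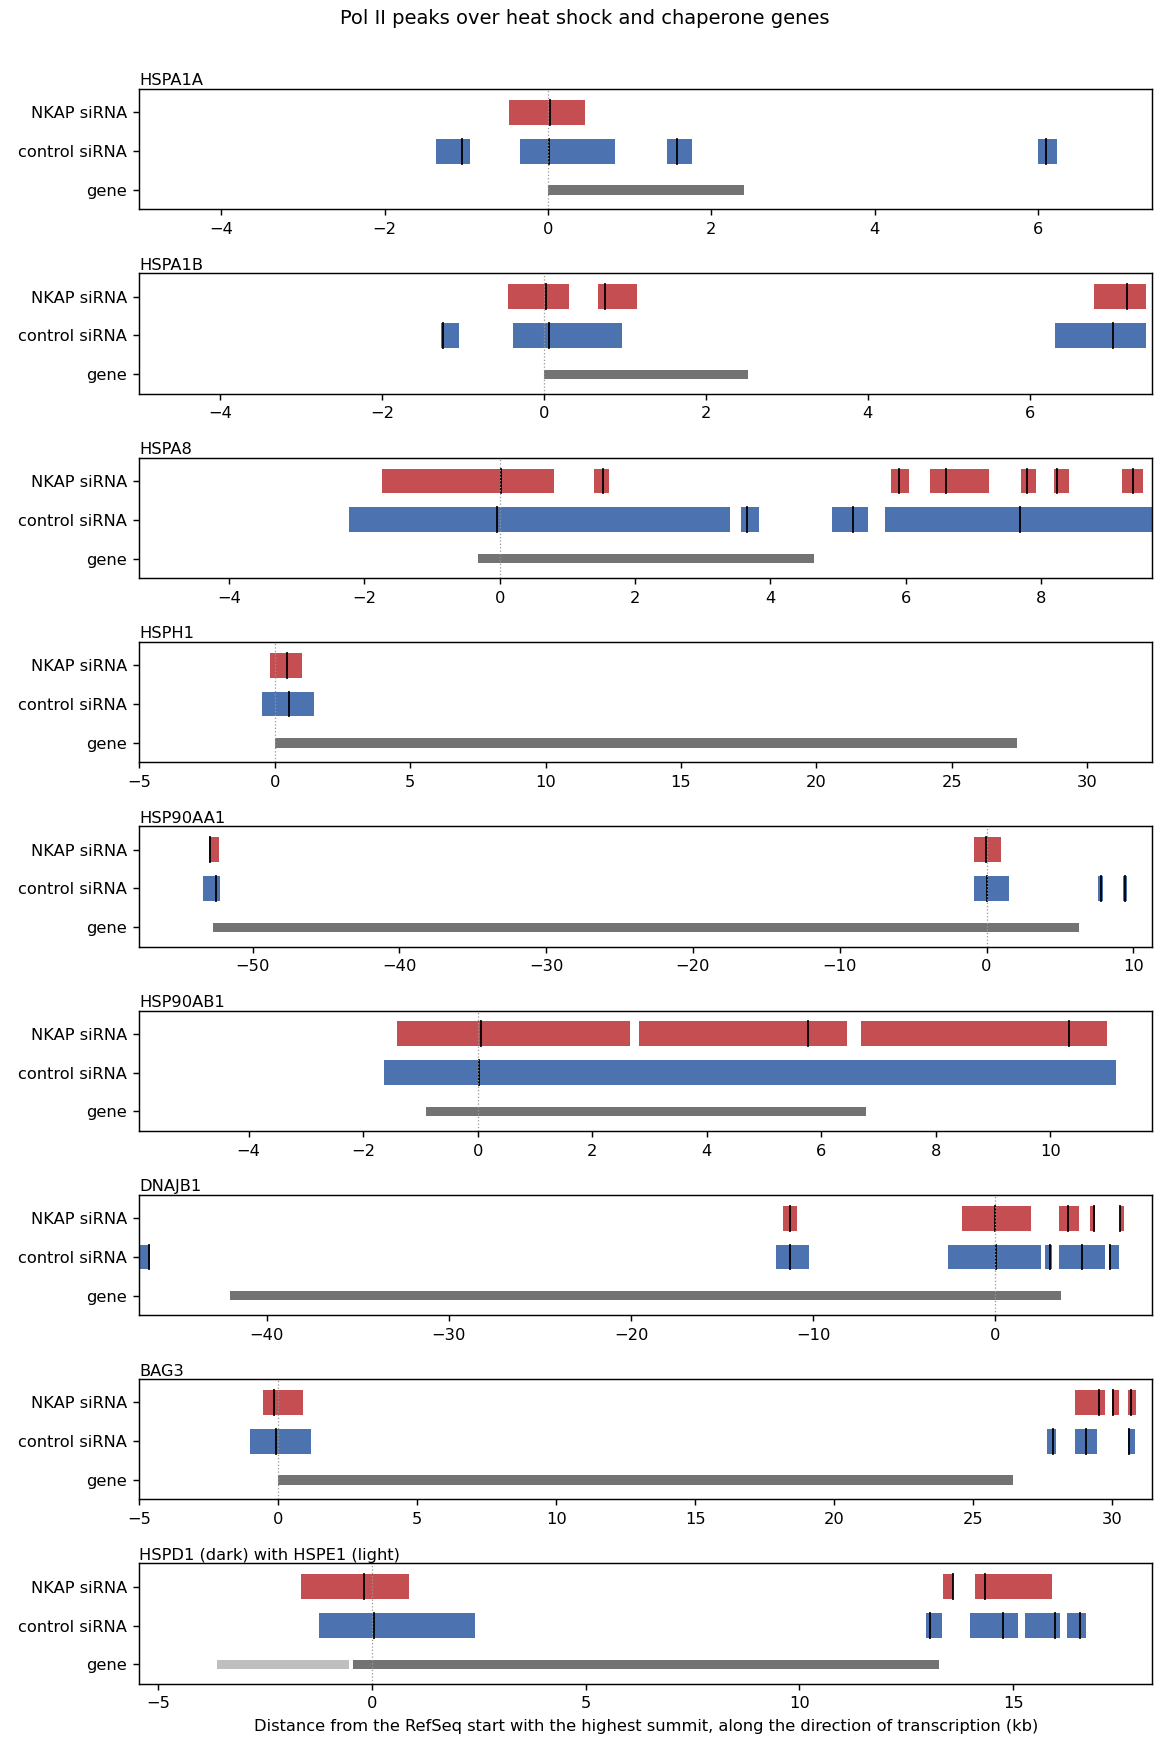
Peaks of the NKAP siRNA list (red, upper row) and of the control siRNA list (blue, middle row) over each gene and its 5000 bp flanks, with summits as black lines and the gene as a grey bar; the x axis gives distance from the RefSeq start with the highest summit, in kb, along the direction of transcription. Every gene has a peak at its start in both lists, and the control peak is the wider one at every start, as at HSPA8 (2536 bp with NKAP siRNA and 5627 bp with control siRNA).

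HSPA1A and HSPA1B encode nearly identical stress-inducible HSP70 proteins from neighbouring genes on chromosome 6, in the major histocompatibility complex (GRCh38, 31815543 to 31817942 and 31827738 to 31830254, both on the plus strand). Their upstream 250 bases follow as RefSeq gives them for GRCh38.p14, 5′ to 3′ on the plus strand up to the base before the start, because the pair is nearly the same there and both stretches lay wholly under a peak in both lists. Capitals mark GAANNTTC, the heat shock element of 2 units. The HSPA1A stretch is chr6:31815293-31815542 and the HSPA1B stretch is chr6:31827488-31827737.
HSPA1A: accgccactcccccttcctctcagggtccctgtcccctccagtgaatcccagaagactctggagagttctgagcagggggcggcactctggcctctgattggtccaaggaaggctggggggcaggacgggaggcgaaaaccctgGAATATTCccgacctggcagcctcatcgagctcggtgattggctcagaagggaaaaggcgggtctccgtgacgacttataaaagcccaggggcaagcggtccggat
HSPA1B: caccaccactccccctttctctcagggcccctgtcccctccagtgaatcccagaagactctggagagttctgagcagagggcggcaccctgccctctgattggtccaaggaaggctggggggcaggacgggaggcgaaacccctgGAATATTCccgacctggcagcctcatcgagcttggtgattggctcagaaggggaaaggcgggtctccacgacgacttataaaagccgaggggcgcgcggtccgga
The stretches align with 235 identical bases, 14 mismatches and 2 gaps, an identity of 93.6%. The element lies 106 to 99 bases before the start of HSPA1A and 105 to 98 bases before that of HSPA1B. A TATAAA lies 30 to 25 bases before the start of HSPA1A and 29 to 24 before that of HSPA1B, and no other of the 16 upstream stretches of the 10 genes holds one.

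Both genes had a lower summit at the start in the NKAP siRNA library. HSPA1A had 27 reads in the NKAP siRNA library and 51 in the control library, a ratio of 0.629 (0.379 to 1.02; log2 −0.67). Of the 12932 genes with peaks in both lists, 5.51% had a lower ratio. The summits lay 23 bp past the start with NKAP siRNA and 14 bp past it with control siRNA, so the highest point was in the same place. At the start of HSPA1B the reads were 23 with NKAP siRNA and 45 with control siRNA, a ratio of 0.607 (0.351 to 1.02; log2 −0.72). The highest peak in the NKAP siRNA window of HSPA1B was another one, with 29 reads, 7204 bp past the start and at the start of the long noncoding RNA gene SNHG32, where the control peak had 31 reads. The ratio for the HSPA1B window, 0.765 (0.463 to 1.25), which enters the counts and medians over the 10 genes, therefore sets that SNHG32 summit over the control summit at the HSPA1B start, 7138 bp away. The deposited fold enrichment at the starts was 13.8 (HSPA1A) and 11.8 (HSPA1B) with NKAP siRNA, and 24.3 (HSPA1A) and 21.5 (HSPA1B) with control siRNA. Folds are the authors' own values, taken over a local background of 0.961 reads with NKAP siRNA and 1.14 reads with control siRNA at both starts.

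Around HSPA1A the control list had peaks that the NKAP siRNA list lacked. The NKAP siRNA library had 1 peak, of 934 bp over the start, and the control library had 4, which covered 2124 bp. The 3 extra control peaks had 13, 15 and 12 reads and lay upstream, in the gene and downstream. HSPA1B had 3 peaks in each list, covering 1875 bp with NKAP siRNA and 2696 bp with control siRNA. The NKAP siRNA library had 2 peaks in the first part of the gene, where the control library had 1 peak of 1348 bp. HSPA1L, which encodes a testis-expressed HSP70 and is read in the other direction from 260 bp away, shares the start peak of HSPA1A, so Pol II on either gene cannot be told apart there.

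Reads of HSPA1A and HSPA1B are uncertain in number. The coding parts of both genes are nearly the same, so reads may be placed on either, and the aligner's setting for such reads is not given in the sources used here. The deposited peaks also lie on 7 alternate versions of the histocompatibility region, with 214 peaks in the NKAP siRNA list and 387 in the control list, so reads of the region may be placed on these copies. Within the region on chromosome 6, 47 of 144 protein-coding genes (32.6%) had a window peak with NKAP siRNA and 61 (42.4%) with control siRNA, and of the 905 genes elsewhere on the chromosome 600 (66.3%) had one with NKAP siRNA and 625 (69.1%) with control siRNA. The median ratio of summit reads was 0.806 in the region and 0.911 elsewhere on chromosome 6. The part of this in the low ratios of HSPA1A and HSPA1B was not tested.

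HSPA8 encodes HSC70, the constitutive HSP70 of the cytosol (chromosome 11, 123057489 to 123062462, minus strand). Its upstream 250 bases, chr11:123062137-123062386, are given 5′ to 3′ on the minus strand because they hold the longer element GAANNTTCNNGAA, the heat shock element of 3 units, marked in capitals at both of its places.
HSPA8: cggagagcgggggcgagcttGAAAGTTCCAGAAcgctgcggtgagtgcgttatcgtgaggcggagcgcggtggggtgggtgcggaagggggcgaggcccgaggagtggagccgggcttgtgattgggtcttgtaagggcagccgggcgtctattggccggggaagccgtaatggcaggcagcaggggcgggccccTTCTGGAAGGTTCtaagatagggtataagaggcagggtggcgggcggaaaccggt
The elements lie 230 to 218 and 55 to 43 bases before the start. GAANNTTCNNGAA on either strand is rare, with a match in 154 of 34961 RefSeq upstream stretches of that length (0.440%), and GAANNTTC, which it contains, is in 5.80%. Of the 16 upstream stretches of the 10 genes, 4 hold the longer element, 1 each at HSPA8, HSP90AA1, HSP90AB1 and HSPD1, and 7 hold the shorter one, which adds HSPA1A, HSPA1B and DNAJB1. CCAAT is in 32.0% of all stretches and in 7 of the 16, GGGCGG (the GC box) in 42.7% and in 15 of the 16, and TATAAA in 10.7% and in 2 of the 16, each counted on both strands. These matches describe letters only.

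Pol II spread over HSPA8 and past its end in both libraries, over a much shorter length with NKAP siRNA. Peaks covered 4675 bp of the window in the NKAP siRNA library and 10387 bp in the control library, which is 31.2% of the window with NKAP siRNA and 69.4% with control siRNA. The start summit had 59 reads with NKAP siRNA and 89 with control siRNA, a ratio of 0.787 (0.557 to 1.11). The start peak ran 798 bp past the RefSeq start, 123062136, with NKAP siRNA and 3397 bp past it with control siRNA. In the rest of the gene, over 1000 bp past the start, peaks covered 225 bp in the NKAP siRNA library and 2669 bp in the control library. Past the gene end they covered 1914 bp, in 5 separate peaks of 10 to 18 reads, with NKAP siRNA, and 4488 bp with control siRNA, in 2 peaks whose summits had 20 and 16 reads. The deposited fold of the start summit was 13.9 with NKAP siRNA and 42.0 with control siRNA, a wider gap than in the reads. The caller's local background there was 3.24 reads in the NKAP siRNA library and 1.14 in the control library, so these folds are not on 1 scale.

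HSPH1 encodes HSP105, an HSP110 protein that acts as an exchange factor for HSP70 (chromosome 13, 31134973 to 31162388, minus strand). It had 1 peak in each list, of 1184 bp with NKAP siRNA and 1934 bp with control siRNA, and no covered sequence past its end in either. The summits were of like height, with 32 reads in the NKAP siRNA library and 36 in the control library, a ratio of 1.06 (0.635 to 1.75). They lay 468 bp past the start with NKAP siRNA and 528 bp past it with control siRNA, farther past the start than at any other of the 10 genes. Its upstream stretch was the only one of the 16 with no GC box, and it also held none of the other motifs searched. That stretch ends at the RefSeq start, so the sequence just before the summits was not searched.

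Both HSP90 genes were among the 4 with the highest summits in each library, with DNAJB1 and HSPA8. HSP90AA1 encodes the inducible and HSP90AB1 the constitutive cytosolic HSP90. HSP90AA1 (chromosome 14, 102080742 to 102139749, minus strand) has an inner start at 102087044 and an outer one at 102139749 in RefSeq, and HSP90AB1 (chromosome 6, 44246194 to 44253883, plus strand) has 3 starts. The upstream stretches with the longer heat shock element are given, 5′ to 3′ on the strand of each gene with the element in capitals, because both lay wholly under peaks in both libraries. That of HSP90AA1 is chr14:102087045-102087294, and that of HSP90AB1, chr6:44247693-44247942, belongs to the innermost start, 44247943, and lies within the gene.
HSP90AA1: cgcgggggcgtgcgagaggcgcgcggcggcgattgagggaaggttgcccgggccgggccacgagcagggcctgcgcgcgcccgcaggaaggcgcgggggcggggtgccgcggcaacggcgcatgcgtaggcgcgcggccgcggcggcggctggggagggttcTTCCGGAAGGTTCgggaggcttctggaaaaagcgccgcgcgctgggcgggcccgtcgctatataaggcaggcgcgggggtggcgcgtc
HSP90AB1: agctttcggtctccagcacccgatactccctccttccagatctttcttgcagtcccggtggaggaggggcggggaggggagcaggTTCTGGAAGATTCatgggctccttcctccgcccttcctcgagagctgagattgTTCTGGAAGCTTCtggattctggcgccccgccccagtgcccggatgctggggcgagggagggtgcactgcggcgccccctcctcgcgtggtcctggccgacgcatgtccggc
The element lies 88 to 76 bases before the inner start of HSP90AA1. At HSP90AB1 it occurs 165 to 153 and 112 to 100 bases before the innermost start, while the highest summit of either list lay at the middle start, 44247101.

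At the inner start of HSP90AA1 the summit had 55 reads in the NKAP siRNA library and 82 in the control library, a ratio of 0.797 (0.556 to 1.13). The outer start, which lies inside the opposite gene WDR20, a partner of deubiquitinases, had 13 reads with NKAP siRNA and 22 with control siRNA, a ratio of 0.702 (0.325 to 1.46). WDR20 starts at 102139423, under the same peak in both lists, so Pol II on either gene cannot be told apart there. The peak at the inner start made up 73.2% of the covered length of HSP90AA1 with NKAP siRNA and 56.8% with control siRNA. Past the end of HSP90AA1 no sequence was covered with NKAP siRNA, against 644 bp, in peaks of 14 and 11 reads, with control siRNA. The deposited fold at the inner start was 27.5 with NKAP siRNA and 27.7 with control siRNA, over a local background of 0.961 reads with NKAP siRNA and 1.99 reads with control siRNA.

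HSP90AB1 was the strongest of the 10 genes in both libraries. Its summit had 121 reads with NKAP siRNA and 163 with control siRNA, a ratio of 0.882 (0.691 to 1.12), and its fold of 45.5 in the NKAP siRNA list and 54.8 in the control list was above that of 99.4% of genes with a peak in the NKAP siRNA list and 99.3% in the control list. Pol II covered the whole gene in the control library, in 1 peak of 12782 bp that ran on into the next gene, SLC35B2, which encodes a sulfate donor transporter and points the other way. In the NKAP siRNA library the same stretch was covered by 3 peaks of 4072, 3646 and 4303 bp, with short gaps. The covered length was 12021 bp with NKAP siRNA and 12782 bp with control siRNA, the highest ratio of the 10 genes (0.940). The peak inside the gene had 23 summit reads and the one over SLC35B2 had 66 with NKAP siRNA, and the control list gives no separate summits for them. Among 12916 other genes with peaks in both lists, those nearest to HSP90AB1 on the log2 scale of the highest fold in each list were RPL28 and UBE2S, which share a peak (47.3 with NKAP siRNA and 54.6 with control siRNA), and NDUFB10 (46.8 with NKAP siRNA and 56.5 with control siRNA).

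**Figure D2:**
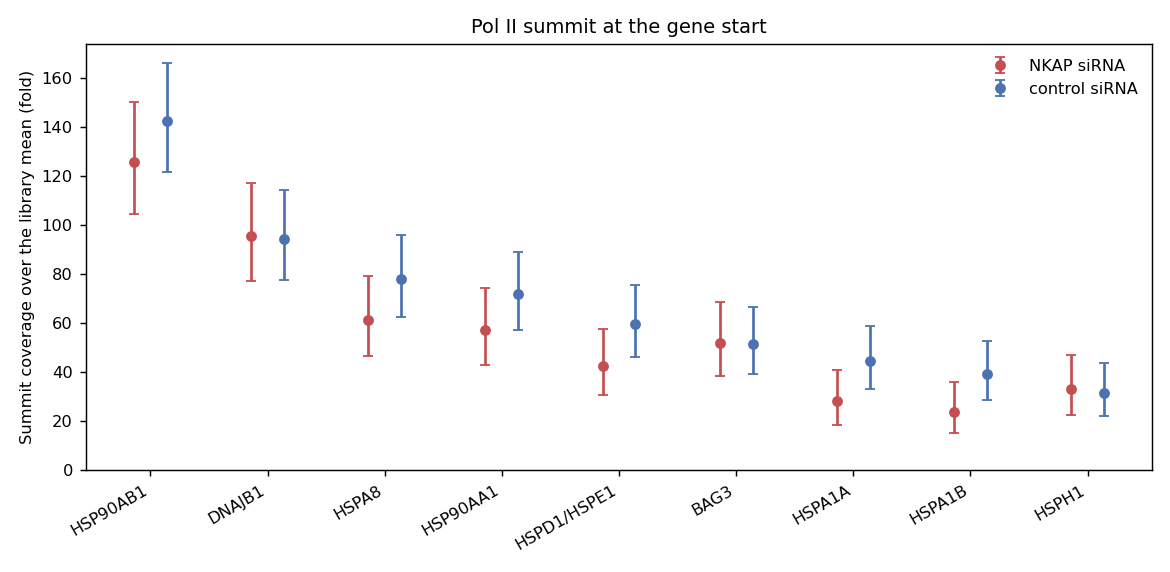
Reads at the summit nearest each main gene start, divided by the mean read coverage of the library (y axis, fold), in the NKAP siRNA library (red, left of each pair) and the control siRNA library (blue, right), with 95% exact Poisson intervals for counting error only. HSP90AB1 is highest in both libraries (125.9 with NKAP siRNA and 142.8 with control siRNA), and HSPA1A and HSPA1B are lower with NKAP siRNA, with intervals that overlap.

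Set on 1 scale, as summit coverage over the mean coverage of the library, the starts kept nearly the same order in both libraries. With NKAP siRNA the order was HSP90AB1 (125.9), DNAJB1 (95.7), HSPA8 (61.4), HSP90AA1 (57.2), BAG3 (52.0), HSPD1 with HSPE1 (42.7), HSPH1 (33.3), HSPA1A (28.1) and HSPA1B (23.9). With control siRNA it was HSP90AB1 (142.8), DNAJB1 (94.6), HSPA8 (78.0), HSP90AA1 (71.8), HSPD1 with HSPE1 (59.6), BAG3 (51.7), HSPA1A (44.7), HSPA1B (39.4) and HSPH1 (31.5). In the control library the counting intervals of HSP90AB1 (121.7 to 166) and DNAJB1 (77.6 to 114) did not overlap, and those of all other neighbours in the order did. In the NKAP siRNA library all neighbours overlapped. HSPH1 was thus lowest in the control library and above the HSPA1 pair in the NKAP siRNA library, with counting intervals that overlap.

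DNAJB1 encodes HSP40, a J protein that delivers clients to HSP70 (chromosome 19, 14514769 to 14560391, minus strand). Most of that span belongs to transcripts from farther upstream, and the main start is at 14518397. Its upstream 250 bases, chr19:14518398-14518647, follow 5′ to 3′ on the minus strand because they hold 2 copies of GAANNTTC, in capitals, 77 to 70 and 47 to 40 bases before the start.
DNAJB1: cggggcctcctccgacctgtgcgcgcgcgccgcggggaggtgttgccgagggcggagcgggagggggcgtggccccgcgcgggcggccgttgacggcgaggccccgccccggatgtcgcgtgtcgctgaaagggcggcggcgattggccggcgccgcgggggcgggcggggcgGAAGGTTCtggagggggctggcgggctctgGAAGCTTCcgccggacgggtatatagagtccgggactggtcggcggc
The summit at this start was the second highest of the 10 genes and did not differ beyond counting error. It had 92 reads in the NKAP siRNA library and 108 in the control library, a ratio of 1.01 (0.758 to 1.35). The start peak was 3789 bp wide with NKAP siRNA and 5092 bp with control siRNA. Peaks past the gene end covered 1454 bp in the NKAP siRNA library and 2928 bp in the control library. The whole window was covered over 6148 bp with NKAP siRNA and 10936 bp with control siRNA, a ratio of 0.562. Covered length was not scaled for depth, so this ratio is not on the scale of the summit ratio. The peak near another start, 14529271, which lies inside TECR, an enzyme of very long chain fatty acid synthesis, had 29 reads with NKAP siRNA and 48 with control siRNA, a ratio of 0.718 (0.436 to 1.16). It was 765 bp wide with NKAP siRNA and 1804 bp with control siRNA, and a control peak of 589 bp also lay within TECR. The lengths for the whole window include these peaks, and Pol II of DNAJB1 and TECR cannot be told apart there.

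BAG3 encodes an HSP70 exchange factor that sends clients to autophagy (chromosome 10, 119651380 to 119677819, plus strand). It had 4 peaks in each list and a start summit of 50 reads in the NKAP siRNA library and 59 in the control library, a ratio of 1.01 (0.676 to 1.49). The start peak was 1447 bp wide with NKAP siRNA and 2192 bp with control siRNA. BAG3 was the 1 gene of the 10 with more covered sequence past its end in the NKAP siRNA library, 1579 bp, against 1341 bp in the control library. The 3 downstream peaks of each list were weak, with 20, 11 and 12 reads with NKAP siRNA and 13, 14 and 11 with control siRNA. The 2 farther ones with NKAP siRNA and the farthest with control siRNA lie within the long noncoding RNA gene LOC124902513. The upstream stretch of BAG3 holds 6 GC boxes and neither heat shock element.

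HSPD1 and HSPE1 encode HSP60 and HSP10, the barrel and the lid of the mitochondrial chaperonin. They lie head to head on chromosome 2 with 105 bp between them (HSPD1 197486584 to 197500274, minus strand; HSPE1 197500379 to 197503449, plus strand), and 1 peak spans both starts. The upstream 250 bases of the inner HSPD1 start, 197499840, chr2:197499841-197500090, are given 5′ to 3′ on the minus strand because they hold 2 overlapping copies of GAANNTTCNNGAA, in capitals, 245 to 228 bases before the start.
HSPD1: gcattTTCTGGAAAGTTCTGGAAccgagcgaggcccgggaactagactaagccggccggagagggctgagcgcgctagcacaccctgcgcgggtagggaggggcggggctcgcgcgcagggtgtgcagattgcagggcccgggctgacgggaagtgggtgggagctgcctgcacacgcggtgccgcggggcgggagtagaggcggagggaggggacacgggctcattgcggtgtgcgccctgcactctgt
The shared summit had 41 reads in the NKAP siRNA library and 68 in the control library, a ratio of 0.716 (0.474 to 1.07; log2 −0.48), and 13.96% of all genes had a lower ratio. The summit lay 184 bp before the inner HSPD1 start with NKAP siRNA and 62 bp past it with control siRNA, 246 bp apart. The peak was 2539 bp wide with NKAP siRNA and 3669 bp with control siRNA. It ran 875 bp past the inner HSPD1 start with NKAP siRNA and 2423 bp past it with control siRNA. On the HSPE1 side it ran 1124 bp past the start with NKAP siRNA and 706 bp with control siRNA. The inner start lies inside HSPD1, which begins at 197500274, so the peak reached farther into HSPD1 than these lengths. The control peak thus leaned toward HSPD1 and the NKAP siRNA peak less so. In the rest of HSPD1 no sequence was covered with NKAP siRNA and 1715 bp with control siRNA, while past the end of HSPD1 peaks covered 2049 bp with NKAP siRNA and 2469 bp with control siRNA. Because both genes share the peak, Pol II on them cannot be told apart, and the counts and medians over the 10 genes hold this peak at both.

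**Figure D3:**
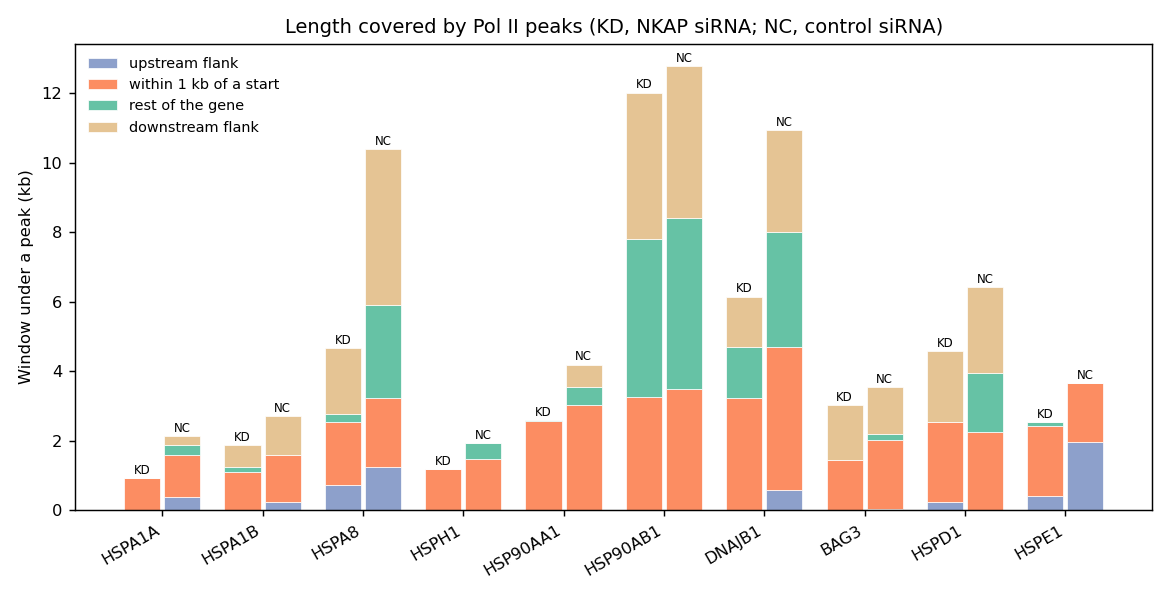
Length of each gene's window under Pol II peaks (y axis, kb) in the NKAP siRNA list (KD, left bar) and the control siRNA list (NC, right bar), split into the upstream flank, the 1000 bp on either side of a RefSeq start, the rest of the gene and the downstream flank. Every KD bar is shorter than its NC bar, least at HSP90AB1 (12021 bp in KD and 12782 bp in NC) and most, as a share, at HSPA1A (934 bp in KD and 2124 bp in NC).

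Split by place, with the peak shared by HSPD1 and HSPE1 counted once, at HSPD1, the starts had the highest ratio of covered length and the gene bodies and upstream flanks the lowest. Within 1000 bp of a start, peaks covered 17827 bp in the NKAP siRNA list and 20913 bp in the control list, a ratio of 0.852, against 0.782 over the 10570 genes of known strand with peaks in both lists. In the rest of the genes the lengths were 6406 bp with NKAP siRNA and 14077 bp with control siRNA (0.455, against 0.486 over those genes). Downstream flanks had 11843 bp with NKAP siRNA and 17584 bp with control siRNA (0.674, against 0.595), and upstream flanks 966 bp with NKAP siRNA and 2436 bp with control siRNA (0.397, against 0.554). The downstream sums include 4209 bp with NKAP siRNA and 4357 bp with control siRNA past HSP90AB1, mostly over SLC35B2. They also include 638 bp with NKAP siRNA and 1119 bp with control siRNA past HSPA1B, in the peak at the SNHG32 start. The upstream sums include 737 bp with NKAP siRNA and 1229 bp with control siRNA at HSPA8, within the long noncoding RNA gene LOC124902775. With control siRNA they include 371 bp at HSPA1A, within HSPA1L, and 589 bp at DNAJB1, within TECR. With NKAP siRNA they include 229 bp at HSPD1, within HSPE1. Pol II of these neighbours cannot be told apart there. The bodies thus had about the ratio seen over all genes. Sequence past the gene end was covered at 6 of the 10 genes with NKAP siRNA, against 29.1% of the 10570 genes, and at 8 with control siRNA, against 37.1%. HSP90AA1 and HSPA1A made the difference, and HSPH1 and HSPE1 had none in either library. The median control summit was 68 reads over the 10 genes and 40 over all genes with peaks in both lists. Covered sequence past the end was not counted among genes of like summit height, so these shares do not compare like with like.

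A covered length lower by 1.5-fold or more was seen at 5 of the 10 genes (HSPA1A, HSPA8, HSPH1, HSP90AA1 and DNAJB1), against 48.2% of all genes, and one higher by 1.5-fold or more at 0, against 2.57%. The median ratio of covered length was 0.655, beside 0.677 over all genes. With the peak shared by HSPD1 and HSPE1 counted once, at HSPD1, the median was 0.619. Over the merged windows of 282729 bp, peaks covered 37042 bp with NKAP siRNA and 55010 bp with control siRNA, a ratio of 0.673. The whole lists covered 23.9 Mb with NKAP siRNA and 38.6 Mb with control siRNA, a lower ratio. Of the 29 NKAP siRNA peaks 26 overlapped a control peak by at least 1 bp (89.7%, 95% Wilson interval 73.6 to 96.4), against 82.8% of all NKAP siRNA peaks. Of the 32 control peaks 18 overlapped an NKAP siRNA peak (56.3%, 39.3 to 71.8), against 54.2% of all control peaks. The peaks found in 1 list only were weak, with folds of 4.04 to 6.05 for the 3 of the NKAP siRNA list and 4.26 to 7.47 for the 14 of the control list. In overlap the 10 genes were thus near the values of the whole lists. Their median ratio of covered length was below that of all genes, more so with the shared peak counted once. The ratio over their merged windows was above that of the whole lists, so the direction depended on the measure.

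**Figure D4:**
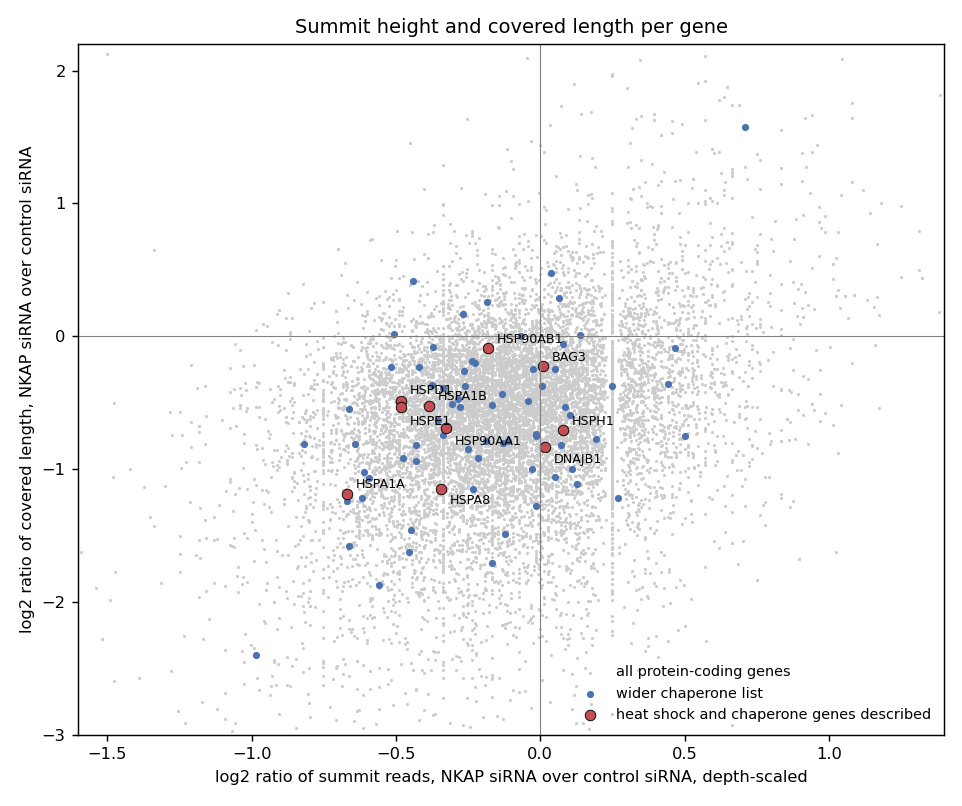
Ratio of depth-scaled summit reads (x axis, log2, NKAP siRNA over control siRNA) against ratio of covered length, not scaled for depth (y axis, log2), for all protein-coding genes with peaks in both lists (grey; 99 of 12932 lie outside the axes), a wider list of chaperone genes (blue) and the 10 genes described (red). All 10 lie below 0 on the y axis, and they run from −0.67 (HSPA1A) to 0.08 (HSPH1) on the x axis.

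Most other genes of the folding network also carried Pol II in both libraries, and their covered length differed about as often as that of all genes. A list of 73 further genes of this kind held 69 with peaks in both lists, 1 with a control peak alone and 3 with none (HSPA2, HSPA4L and PFDN6). The 1 gene was CHORDC1, which encodes an HSP90 cochaperone, with 14 reads and 533 bp covered in the control library. Summit reads were lower with NKAP siRNA by 1.5-fold or more at 9 of the 69 (13.0%) and higher at 1, HSPA6. The share lower by that much was 8.41% over all genes and 10% over the genes with at least 36 control reads. The 9 include HSPA1L, whose summit is that of HSPA1A and was already counted among the 10 genes. Covered length was lower with NKAP siRNA at 60 of the 69 (87.0%, beside 87.3% of all genes), by 1.5-fold or more at 36 (52.2%, beside 48.2%), and higher by that much at HSPA6 alone, and the median ratio was 0.648. The median ratio of summit reads was 0.862.

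By class, beside the 0.918 of all genes and the 0.872 of genes with at least 36 control reads, the other HSP70 and HSP90 genes had a median ratio of summit reads of 0.742 over 9 genes, the J proteins 0.782 over 11, and the nucleotide exchange factors 0.812 over 8. The other HSP70 and HSP90 genes include HSPA1L (0.629), whose summit is that of HSPA1A, so this class reuses a value of the 10 genes. Its ratios ran from 0.506 (HSPA5) to 1.63 (HSPA6), and its median without HSPA1L was not computed. The small heat shock proteins had 0.848 over 5, the HSP90 cochaperones 0.857 over 10 and the TRiC chaperonin with prefoldin 0.926 over 13. Other folding and heat shock targets had 0.891 over 9. The 4 heat shock factors and regulators had 1.12, and among them HSF1, the main activator of the heat shock genes, had 49 reads with NKAP siRNA and 72 with control siRNA (0.808, 0.550 to 1.18). The others were HSF2 (1.06), HSF4 (1.19) and HSBP1 (1.42). Among genes with at least 1000 bp covered in both lists, HSPA5, which encodes BiP, the HSP70 of the endoplasmic reticulum, had the lowest ratio of covered length, with 1615 bp in the NKAP siRNA library and 8508 bp in the control library (ratio 0.190). Its summit had 43 reads with NKAP siRNA and 101 with control siRNA, a ratio of 0.506 (0.345 to 0.729). The J protein genes DNAJC7 (1939 bp with NKAP siRNA and 5970 bp with control siRNA) and DNAJB2 (3886 bp with NKAP siRNA and 11594 bp with control siRNA) had the next lowest ratios among them. The highest ratios were those of HSPB8, a small heat shock protein gene that works with BAG3 (3100 bp with NKAP siRNA and 2232 bp with control siRNA), AHSA1, an activator of the HSP90 ATPase (1541 bp with NKAP siRNA and 1157 bp with control siRNA), and HSPA9, the mitochondrial HSP70 (5161 bp with NKAP siRNA and 4223 bp with control siRNA). Named after its values were seen, HSPB1, the gene of HSP27, had 54 summit reads with NKAP siRNA and 113 with control siRNA (0.568, 0.403 to 0.792). HSPA6, a strictly inducible HSP70 gene and likewise named after its values were seen, had 22 reads with NKAP siRNA and 16 with control siRNA (1.63, 0.819 to 3.33), and 1983 bp covered with NKAP siRNA against 667 bp with control siRNA.

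Several of the 10 genes have processed copies elsewhere in the genome that could take up their reads. RefSeq names 83 pseudogenes after HSPE1 (28), HSPD1 (22), HSPA8 (20), HSP90AB1 (6), HSP90AA1 (5) and DNAJB1 (2). No peak of either list touched any of them.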

How the data were processed

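Pol II ChIP-seq peak lists of 2 libraries, 1 of NKAP siRNA and 1 of control siRNA, were used. The build hg38 and the tools MACS2 2.1.0, Bowtie 1.1.2, Trimmomatic 0.33 and bcl2fastq 2.17 are named, without roles or order, per the submitters' processing notes (settings not given in the sources used here). Peaks were called separately for each library, as the deposited lists show. For each peak the deposited columns give its position and summit, a score (10 times the −log10 q, without decimals), the fold enrichment of the summit over the local background as a ratio, and the −log10 of its p-value and of its q-value. These are the authors' values. Folds of the 2 lists were set side by side as a description, and the nearest genes to HSP90AB1 were found from them.

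Only peaks on chromosomes 1 to 22 and X were kept, and other sequences held 1526 NKAP siRNA peaks (5.47%) and 2218 control peaks (5.75%). Reads at each summit were computed from the deposited fold and −log10 p, which together fix the pileup and its background. The median summit had 19 reads in the NKAP siRNA list and 18 in the control list. The smallest peak width of each list, 225 bp with NKAP siRNA and 229 bp with control siRNA, was taken as its fragment length. The NKAP siRNA library then had 0.857 times the depth and 0.842 times the mean coverage of the control library, and its peaks were called at 0.779 times the coverage. Recovery was checked on simulated data. Intervals are at 95% and cover counting error only.

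Gene spans, starts and upstream sequences came from RefSeq (GRCh38.p14). A gene's value is its highest summit within 5000 bp. Sequence within 1000 bp of a RefSeq start was counted first, then the rest of the gene and its flanks. All 73 genes of the wider list matched, HSPB11 as IFT25. The 10 genes and all lists were chosen with earlier results of these data known. Of the wider list, the text names genes with a peak in 1 list only and the 3 with the lowest and the 3 with the highest ratio of covered length among those with at least 1000 bp covered in both lists. The heat shock factors and regulators, HSPB1, HSPA6 and the genes without a peak are named outside this rule. The nearest genes were those at the smallest Euclidean distance. The files were read with Python 3.11.15, numpy 2.4.6, pandas 2.3.3 and SciPy 1.17.1, and figures drawn with matplotlib 3.10.9. Alternatives were the peak threshold, equal list lengths, the window, the overlap, the depth used for scaling, and peaks nearest to a neighbouring gene left out.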

Additional observations from a re-analysis of the deposited data

How the results depend on the processing

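All 10 genes kept a peak in both lists under every alternative run for that count, and the covered length over the windows was lower with NKAP siRNA in each, with ratios of 0.593 to 0.716. No alternative adjusted the width of a peak for depth. With peaks of −log10 q of at least 10 the windows held 16 peaks in the NKAP siRNA list (29 with all peaks) and 16 in the control list (32 with all peaks), and 81.3% of the control peaks were then overlapped. With windows of 1000 bp they held 18 NKAP siRNA peaks and 19 control peaks. The ratios of summit reads ran from 0.679 to 1.14 when scaled by the coverage at which peaks were called, from 0.685 to 1.15 when scaled by the median ratio over all genes, and from 0.607 to 1.06 with windows of 1000 bp, and 7 of 10 were below 1 in each. Control summits thinned to the coverage of the NKAP siRNA list, an alternative chosen after seeing the data, left 34150 control peaks and all 32 of the windows. Thinning could drop whole peaks only, so the covered control length stayed at 55010 bp and its ratio was not tested by it. No paired analysis was possible because each group had 1 ChIP library, and for the same reason no replicate could be left out. HSPA1A was lower by 1.5-fold or more under neither of the first pair of scalings, and HSPA1B joined it with windows of 1000 bp.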
